A study of Rattus norvegicus with 10 samples.

Results

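The TGF-beta genes described here are the ligand genes Tgfb1, Tgfb2 and Tgfb3, the type I receptor gene Tgfbr1, the inhibitory SMAD gene Smad7 and the matricellular genes Ccn2 and Thbs2. They were chosen by name, with earlier results of these data known. Of the 9 genes chosen, 7 had a probe set with a single gene symbol, among 14217 genes in all. The other 2, the type II receptor gene Tgfbr2 and Thbs1, a known activator of latent TGF-beta, had none and were not analysed here. Where a gene had several probe sets, the one that varied most among the 10 arrays was read. All livers, of both groups, were cirrhotic and came from male Wistar rats that had inhaled CCl4. In the CVX-060 group, 5 rats received CVX-060, an inhibitor of the Tie2 ligand Ang2, into the tail vein in weekly doses of 10 mg/kg over 4 weeks, and in the vehicle group 5 rats received vehicle once a week. RNA of the whole liver of each rat was hybridized to its own Affymetrix rat expression array. Values are log2 signals per probe set, so that a difference of 1 is a doubling of signal. No healthy liver was analysed here.

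TGF-beta is made as a latent precursor that is bound to matrix and released by integrins, proteases and thrombospondin-1. The active ligand joins a type II and a type I receptor at the cell surface, and the type I receptor phosphorylates Smad2 and Smad3, which enter the nucleus with Smad4. Smad7 is induced by the pathway and blocks it at the receptor. In injured liver the pathway is known for turning hepatic stellate cells into matrix-producing myofibroblasts, and Col1a1, the gene of the α1 chain of type I collagen, is a main product of these cells.

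Promoters are shown for Ccn2 and Tgfbr1, the genes whose signal tracked Col1a1 most closely below. RefSeq promoters of the GRCr8 build, from 250 bases before to 50 after the start, were found for 6 of the 7 genes. For Tgfbr1, Tgfb2 and Tgfb3 that start lies inside the annotated gene, not at its outer edge. The Ccn2 promoter lies at chr1:22624565-22624864 on the minus strand. Its capitals mark GGAATG, the core letters bound by TEAD factors, the partners of YAP, and the TATA box TATAAA.
Ccn2: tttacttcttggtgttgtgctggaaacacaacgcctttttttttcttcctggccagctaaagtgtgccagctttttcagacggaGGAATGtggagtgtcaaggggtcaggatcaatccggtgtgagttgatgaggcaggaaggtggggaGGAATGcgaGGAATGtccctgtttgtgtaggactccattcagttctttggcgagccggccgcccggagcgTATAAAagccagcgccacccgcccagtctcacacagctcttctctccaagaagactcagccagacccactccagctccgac
The Tgfbr1 promoter lies at chr5:66449148-66449447 on the plus strand, and its capitals mark GGGCGG on either strand, the core letters of a GC box.
Tgfbr1: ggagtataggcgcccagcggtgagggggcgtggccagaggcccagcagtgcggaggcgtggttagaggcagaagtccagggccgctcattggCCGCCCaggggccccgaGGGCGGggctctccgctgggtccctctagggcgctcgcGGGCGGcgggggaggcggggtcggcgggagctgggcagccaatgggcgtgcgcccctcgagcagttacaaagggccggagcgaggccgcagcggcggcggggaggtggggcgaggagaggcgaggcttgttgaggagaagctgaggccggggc

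Over both strands of these windows, GGAATG starts at positions -166, -101 and -92 from the start of Ccn2. Of all 33469 promoters of the same length 14.2% hold GGAATG at least once and 0.0956% at least 3 times, and the promoters of the other 5 genes hold none. Beyond the capitals, GGGCGG also has 2 matches on the opposite strand of Ccn2, at -43 and -13. TATAAA starts at -31 in Ccn2 and is in 14.2% of all promoters. GGGCGG occurs 3 times in Tgfbr1, whose promoter has a GC content of 74.7%, against a median of 51.7% over all promoters, and 8.97% of all promoters hold GGGCGG at least 3 times. CAGAC, which contains the AGAC letters that SMADs bind, occurs in Ccn2 at -174 and 30 and in 50.1% of all promoters. The SMAD palindrome GTCTAGAC (0.197% of all promoters), CAGACA (21.1%) and the AP-1 site TGANTCA (7.33%) are not among the letters of the 6 windows. These matches are letters in a reference sequence and were not tested for function.

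Array medians lay between 5.52 and 5.57. As background served 32 probe sets picked by symbol for chemosensory receptor genes (olfactory, vomeronasal, trace amine), which liver is not known to use. Among them is Olr1, the oxidized LDL receptor gene, which is not a chemosensory receptor, and no level was computed without it. The level that 95% of the 32 probe sets did not exceed on an array lay between 5.46 and 5.83. All 5 hepatocyte markers lay above it in all 10 rats. CVX-060 rat 5 and vehicle rat 2 stood apart on the first principal component over all genes (35.4% of the variance), with scores of 35.5 and 34.5 against -26.2 to 9.74 for the other rats. Both also had the highest Col1a1 signals, so r of the 7 TGF-beta genes with Col1a1 is given with and without them. Relations of cell type markers to Col1a1 are given over all 10 rats only. The titles call the rats biological replicates. For its own predictions the paper retained only some replicates of each treatment, after quality control and a view of principal components. Which replicates it retained is not stated in its text. All 10 rats were kept here, so results over all rats include arrays that the paper set aside. Titles and treatment labels agree on which rats received CVX-060 and gave the groups used here, whereas the number in the name of the agent in the source names goes up by 1 from sample to sample within each group (CCl4 in the vehicle group, CVX-060 in the CVX-060 group), a discrepancy that was not resolved. In whole liver, fewer cells of a type and less RNA per cell cannot be told apart.

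Among the ligands, Tgfb3 lay above background in all 10 rats, Tgfb2 in 2 CVX-060 rats and no vehicle rat, and Tgfb1 in none. Tgfb1, the isoform best known in liver fibrosis, had log2 signals of 5.37, 5.26, 5.03, 5.34 and 5.26 in CVX-060 rats 1 to 5, against 5.24, 5.42, 5.23, 5.48 and 4.94 in vehicle rats 1 to 5. All 10 values exceeded 90% of the background probe sets on their arrays but not 95% of them, so Tgfb1 was not clearly separated from background. Tgfb2 had 5.82, 5.71, 5.64, 5.22 and 6.99 in the CVX-060 rats, against 5.63, 5.53, 5.58, 5.48 and 5.34 in the vehicle rats. CVX-060 rat 5 stood apart, since the remaining 9 rats lay between 5.22 and 5.82. A further probe set of Tgfb2, below background in all rats, was also highest in CVX-060 rat 5, at 5.03, where the others lay at 4.68 to 4.87. Tgfb3, an isoform of mesenchymal cells, had 6.60, 6.62, 6.09, 6.84 and 6.73 in the CVX-060 rats, against 6.30, 7.13, 6.42, 7.12 and 6.26 in the vehicle rats. Vehicle rats 2 and 4 were the highest of all, and the groups overlapped for each ligand.

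Tgfbr1, the kinase that signals to SMADs, had 10.01, 10.02, 9.80, 9.84 and 10.13 in the CVX-060 rats, against 9.61, 10.12, 10.03, 9.89 and 9.80 in the vehicle rats. Its SD over the 10 rats was 0.17, near the median SD of 0.18 over all genes. Smad7 had 8.10, 8.07, 7.56, 7.38 and 6.90 in the CVX-060 rats, against 8.02, 8.29, 6.54, 7.65 and 7.52 in the vehicle rats, with the lowest values in vehicle rat 3 and CVX-060 rat 5. Both genes lay above background in every rat from the probe set used, whereas the other probe set of Tgfbr1 and the other 2 of Smad7 lay below the 90th percentile of background in all rats.

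Ccn2, or connective tissue growth factor, a matricellular protein induced by TGF-beta and YAP, varied most. It had 10.23, 10.41, 9.17, 9.61 and 12.04 in the CVX-060 rats, against 9.63, 11.17, 10.59, 10.24 and 9.23 in the vehicle rats. Its SD over the rats was 0.90, above that of 98.8% of all genes, and each group held both high and low rats. Thbs2, a matricellular glycoprotein of fibroblasts, had 6.11, 5.89, 6.02, 6.07 and 5.88 in the CVX-060 rats, against 5.78, 5.80, 5.94, 5.89 and 5.80 in the vehicle rats. It lay above background in 5 CVX-060 rats and 4 vehicle rats, by a small margin, and its SD over the rats was 0.11.

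**Figure D1:**
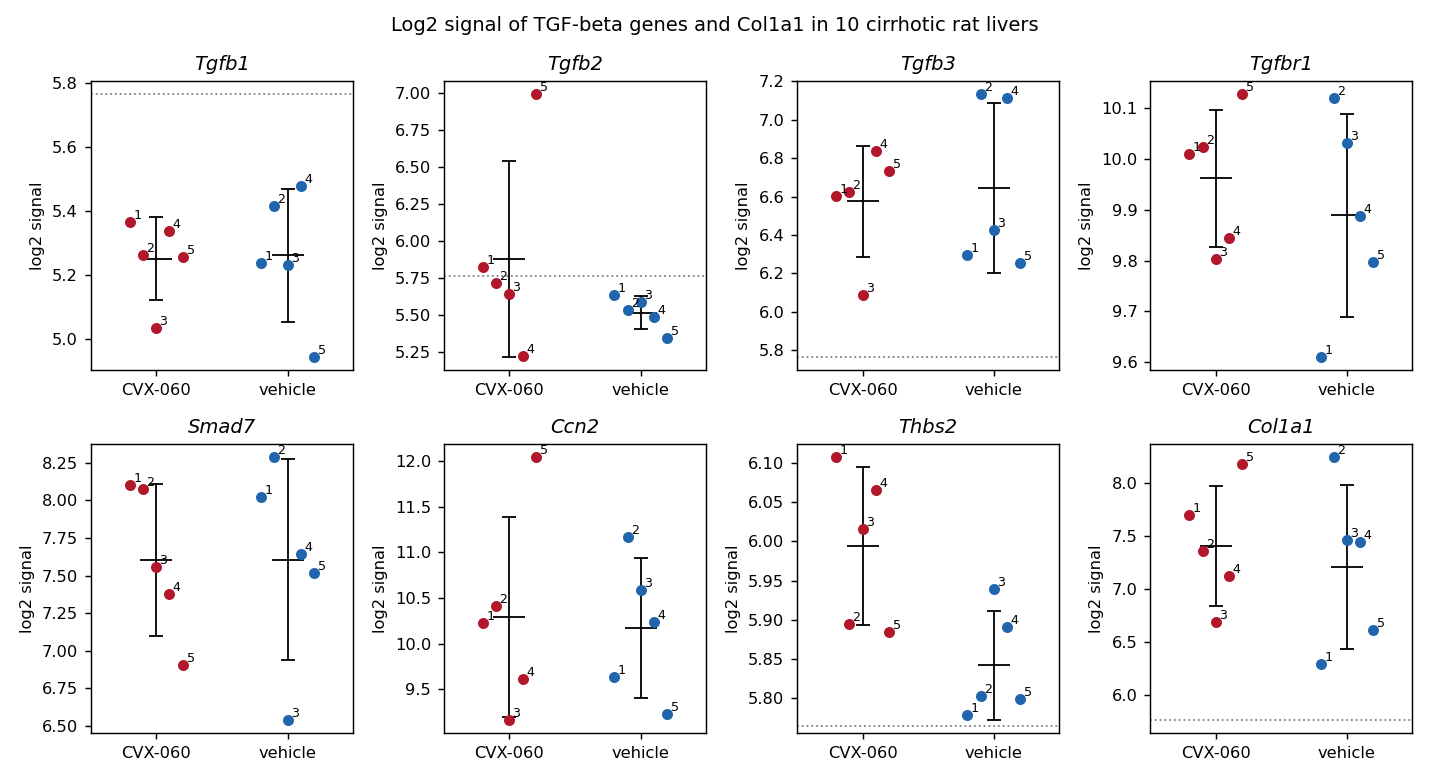
Log2 signal (vertical axis) of each TGF-beta gene and of Col1a1 in 5 CVX-060 and 5 vehicle rats, where points are rats with their number, bars are the mean ± SD, and the dotted line is the median background level of 5.76 in panels that reach it. The groups overlap in every panel, and CVX-060 rat 5 is the highest rat for Tgfb2, at 6.99, and Ccn2, at 12.04.

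Read rat by rat, CVX-060 rat 5 and vehicle rat 2 held ranks 1 and 2 of 10 for both Tgfbr1 and Ccn2, but differed in the rest. CVX-060 rat 5 was highest for Tgfb2 and ranked 9 for Smad7. Vehicle rat 2 was highest for Tgfb3 and Smad7 and ranked 7 for Tgfb2. Vehicle rat 5 ranked 9 or 10 for 6 of the 7 genes and 7 for Smad7. CVX-060 rat 3 was lowest for Tgfb3 and Ccn2, and vehicle rat 1 was lowest for Tgfbr1 and Thbs2.

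CVX-060 was then compared with vehicle, to ask whether treatment shifted the pathway in cirrhotic liver. None of the 7 genes had an adjusted p under 0.05 (limma, Benjamini-Hochberg over all genes), where 0% of the 14217 genes passed, and 0 of the 7 had an unadjusted p under 0.05, where 2.44% of all genes did. The ranges of CVX-060 and vehicle rats overlapped for all 7, where 0.485% of all genes had ranges that did not. The lowest adjusted p over all genes was 0.99997. Of the 7 genes 4 had a higher and 3 a lower mean with CVX-060, where 52.6% of all genes had a higher mean. Their median difference was 0.07, against 0.0064 over all genes.

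Thbs2 averaged 5.99 ± 0.10 with CVX-060 and 5.84 ± 0.07 with vehicle (SD, n = 5 rats each), a log2 difference of 0.15 (95% interval -0.0020 to 0.31, exact two-sided permutation p = 0.0397, adjusted p = 0.99997 in limma). All 5 CVX-060 rats lay above the vehicle median, yet 2 of them lay below the highest vehicle rat. Tgfb2 averaged 5.88 ± 0.66 with CVX-060 and 5.51 ± 0.11 with vehicle, a difference of 0.36 (95% interval -0.23 to 0.95, exact p = 0.262), which was 0.08 without CVX-060 rat 5. For Ccn2 the means were 10.29 ± 1.10 and 10.17 ± 0.77 in CVX-060 and vehicle rats, a difference of 0.12 with an interval of -1.04 to 1.29 (exact p = 0.873). That interval leaves room for a doubling and for a halving of Ccn2. Without CVX-060 rat 5 the Ccn2 difference was -0.31.

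Tgfb1 differed by -0.0094 (95% interval -0.25 to 0.23, exact p = 0.944), Tgfb3 by -0.07 (-0.54 to 0.40, exact p = 0.770) and Tgfbr1 by 0.07 (-0.16 to 0.31, exact p = 0.540). Smad7 differed by -0.00096, with a wide interval of -0.73 to 0.73 (exact p = 1.0). The intervals of Tgfb1, Tgfb3, Tgfbr1 and Thbs2 lay within 1.5-fold in either direction, while those of the others did not. Col1a1 itself averaged 7.41 ± 0.57 with CVX-060 and 7.21 ± 0.78 with vehicle, a difference of 0.20 (exact p = 0.675). The smallest p that this exact test allows is 0.0079.

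**Figure D2:**
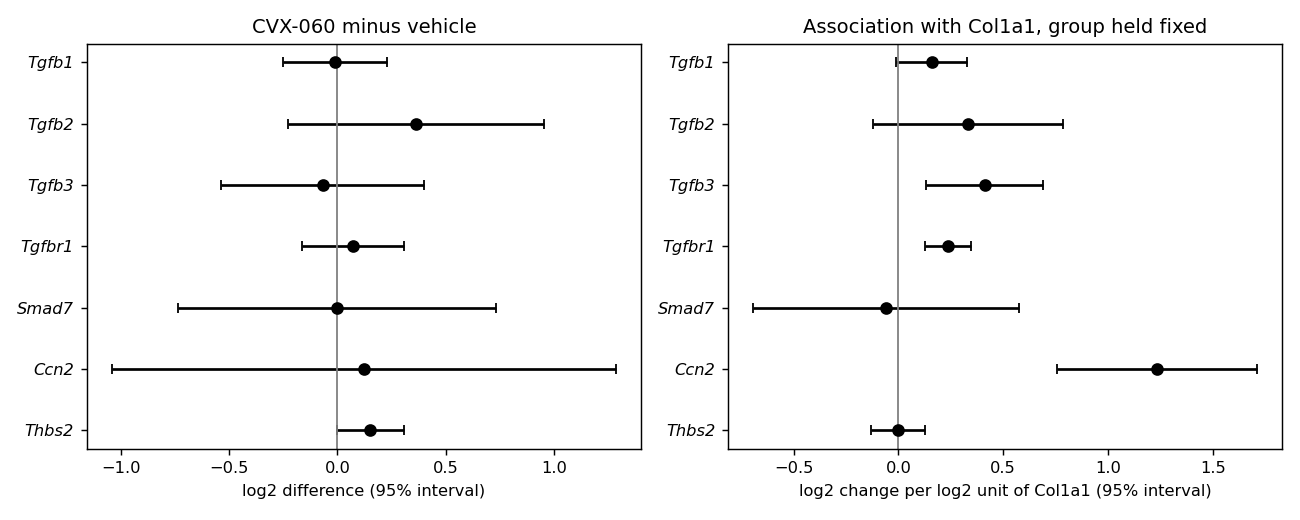
Left, log2 difference CVX-060 minus vehicle of the 7 genes, and right, log2 change of each gene per log2 unit of Col1a1 with the group held fixed, where points are limma estimates over 10 rats and bars are 95% intervals. On the left every interval includes 0, and on the right those of Tgfb3, Tgfbr1 and Ccn2 lie above 0.

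The TGF-beta genes were next set against Col1a1, to ask which of them went with collagen expression from rat to rat. Col1a1 had 7.69, 7.36, 6.69, 7.12 and 8.18 in CVX-060 rats 1 to 5, against 6.29, 8.25, 7.46, 7.44 and 6.61 in vehicle rats 1 to 5. In a limma fit on Col1a1 with the group held fixed, 2 of the 7 genes, Ccn2 and Tgfbr1, had an adjusted p under 0.05, where 5.22% of the 14216 other genes passed (546 with a positive and 196 with a negative slope). Both had positive slopes, as did 5 of the 7 genes and 47.6% of all genes. An unadjusted p under 0.05 was found for 3 of the 7 genes and for 23.1% of all genes.

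Ccn2 changed by 1.24 on the log2 scale per log2 unit of Col1a1 (standard error 0.21, 95% interval 0.76 to 1.71, adjusted p = 0.0165 in limma). Its Pearson's r with Col1a1 over the 10 rats was 0.88 (permutation p = 0.00076) and its Spearman's rho 0.82 (permutation p = 0.00576). Tgfbr1 changed by 0.24 per unit (standard error 0.05, 95% interval 0.13 to 0.35, adjusted p = 0.0280), with an r of 0.94 (permutation p = 5e-05) and a rho of 0.93 (permutation p = 0.00028). Tgfbr1 thus followed Col1a1 over a narrow range of signal and Ccn2 over a wide one. Of all genes 0.176% had a larger r with Col1a1 than Tgfbr1 and 1.39% a larger r than Ccn2. Tgfb3 had a slope of 0.41 (95% interval 0.13 to 0.69) and an r of 0.72 (permutation p = 0.0207, rho 0.66, permutation p = 0.0435), but did not pass over all genes (adjusted p = 0.0889).

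The remaining 4 genes did not pass. Tgfb1 had a slope of 0.16 (95% interval -0.01 to 0.33) and an r of 0.61 (permutation p = 0.0614, rho 0.58, permutation p = 0.0874). Tgfb2 had a slope of 0.33 (-0.12 to 0.79) and an r of 0.50 (permutation p = 0.153, rho 0.33, permutation p = 0.352). Smad7 had a slope of -0.06 (-0.69 to 0.58) and an r of -0.07 (permutation p = 0.856, rho 0.15, permutation p = 0.681). In CVX-060 rat 5 and vehicle rat 2, which had the most Col1a1, Smad7 stood at 6.90 and 8.29, near both ends of its range. Thbs2 had a slope of -0.0012 (-0.13 to 0.13) and an r of 0.11 (permutation p = 0.766, rho 0.21, permutation p = 0.557). Adjusted p-values in limma were 0.247 for Tgfb1, 0.354 for Tgfb2, 0.924 for Smad7 and 0.992 for Thbs2, and 7 relations with Col1a1 were computed.

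**Figure D3:**
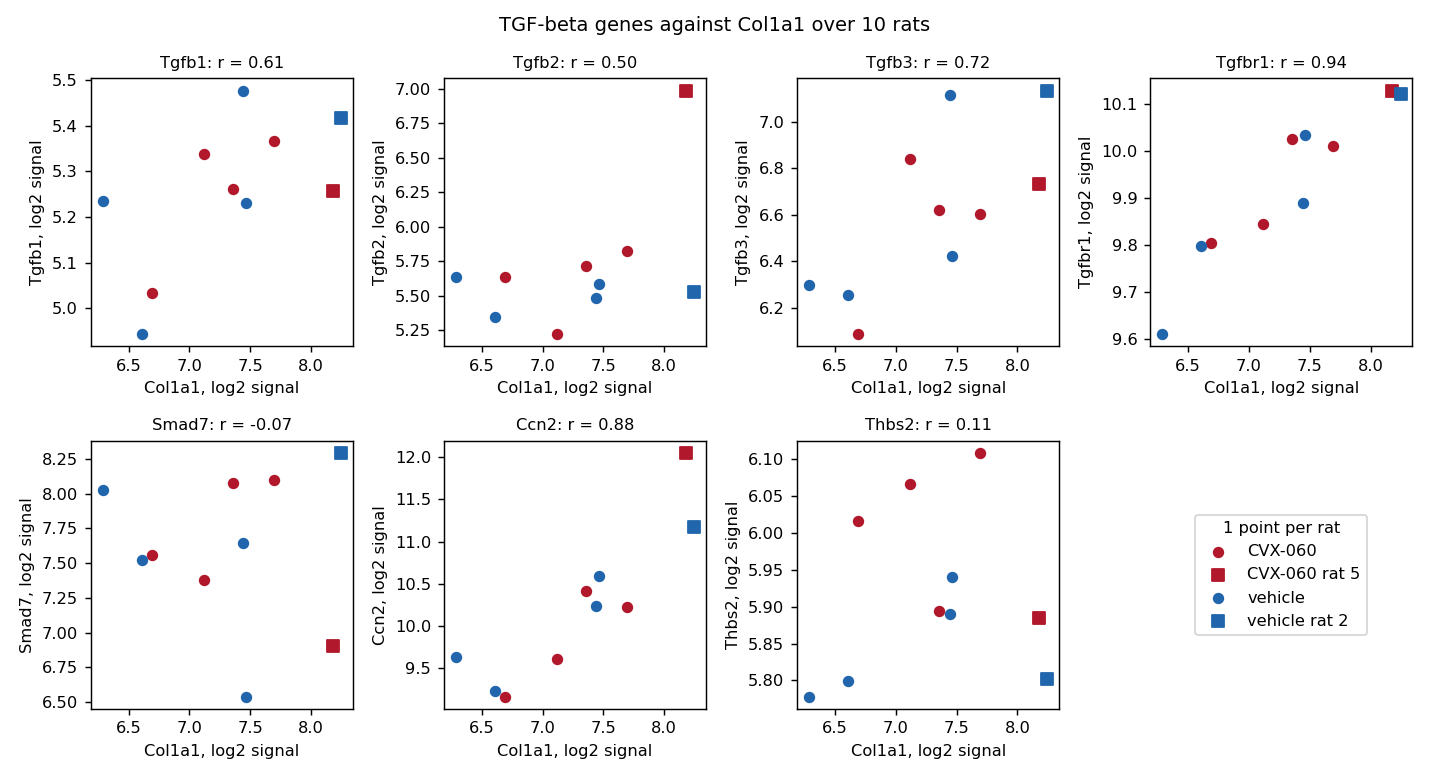
Log2 signal of each TGF-beta gene (vertical axis) against that of Col1a1 (horizontal axis), where each point is a rat and squares are CVX-060 rat 5 and vehicle rat 2. Tgfbr1 (r = 0.94) and Ccn2 (r = 0.88) follow Col1a1 in both groups, whereas Smad7 (r = -0.07) and Thbs2 (r = 0.11) do not line up with it.

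Without vehicle rats 1 and 2, the rats farthest from the median of Col1a1, r was 0.91 for Tgfbr1, 0.94 for Ccn2, 0.57 for Tgfb3, 0.65 for Tgfb1, 0.76 for Tgfb2, -0.22 for Smad7 and 0.09 for Thbs2. Without CVX-060 rat 5 and vehicle rat 2, r was 0.63 for Tgfb3, 0.65 for Tgfb1, 0.27 for Tgfb2, -0.14 for Smad7 and 0.58 for Thbs2. It was 0.91 for Tgfbr1 (exact permutation p = 0.00166, n = 8 rats) and 0.80 for Ccn2 (exact permutation p = 0.0247, n = 8 rats). Their slopes were then 0.26 and 0.98, but none of all genes (0) had an adjusted p under 0.05 (adjusted p = 0.514 for Tgfbr1 and 0.324 for Ccn2, unadjusted p = 0.0129 and 0.0026 in limma). The count over all genes, 742, rested on single rats, being 25 without vehicle rat 2, 226 without CVX-060 rat 5, 287 without vehicle rat 5, 365 without CVX-060 rat 3 and 395 without vehicle rat 1. The call of Ccn2 was lost without vehicle rat 2 (adjusted p = 0.0855), and that of Tgfbr1 when any of CVX-060 rat 3 (0.0633), CVX-060 rat 5 (0.0794), vehicle rat 1 (0.0920), vehicle rat 2 (0.174) and vehicle rat 5 (0.0543) was left out. Tgfb3 passed without CVX-060 rat 4 (0.0492). With the other probe set of Col1a1, chosen after the data were seen, Ccn2 passed (adjusted p = 0.0236) and Tgfbr1 did not (0.0786). With Col3a1 in place of Col1a1 neither passed (0.140 for Ccn2 and 0.175 for Tgfbr1), and Tgfbr1 also missed the threshold with Col1a2 (0.0609) and with a trended, robust variance prior (0.0502).

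Among themselves, the 7 genes formed 21 pairs, of which 14 had a positive r and 2 passed a permutation test adjusted over the pairs. Counts for pairs of other genes were not computed, so these describe the 7 genes only. Tgfb1 and Tgfb3 had an r of 0.87 (permutation p = 0.0014, adjusted p = 0.0302, rho 0.88, permutation p = 0.0017). This r was 0.86 without the 2 rats farthest from the Tgfb1 median and 0.87 without CVX-060 rat 5 and vehicle rat 2, although Tgfb1 lay below background. Tgfbr1 and Ccn2 had an r of 0.83 (permutation p = 0.0032, adjusted p = 0.0333, rho 0.90, permutation p = 0.0007). That r was 0.95 without the 2 rats farthest from the Tgfbr1 median and 0.75 without CVX-060 rat 5 and vehicle rat 2. Leaving out vehicle rat 2, vehicle rat 4, CVX-060 rat 4 or CVX-060 rat 5 left 0 pairs passing, and leaving out CVX-060 rat 3, vehicle rat 3 or vehicle rat 5 left 1. Smad7 had its lowest r with Tgfb2, -0.30 (permutation p = 0.403, rho 0.16, permutation p = 0.657), and that r was 0.29 without the 2 rats farthest from the Tgfb2 median.

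The genes of the most similar pattern over the 10 rats were searched among genes with a mean above background, with r as the measure. For Tgfbr1 they were Hltf (0.97), Ubtd2 (0.96) and Col1a1 (0.94). For Ccn2 they were Cdc42ep5 (0.96), the chemokine gene Cxcl16 (0.94) and Slc25a4, a mitochondrial ADP/ATP carrier (0.94). For Tgfb3 they were Gpx3, a secreted glutathione peroxidase (0.94), Zfp518b (0.93) and Dkk3 (0.93), and for Tgfb1 Zfp691 (0.92), Hivep2 (0.91) and the proteoglycan gene Podn (0.91). Smad7 was most like Tmem140 (0.95), the sorting nexin gene Snx3 (0.94) and Naif1 (0.93), and Thbs2 like Dnm1l, a mitochondrial fission GTPase (0.91), Zswim1 (0.87) and Ppp2r5a (0.87). Tgfb2 was most like the sodium channel subunit gene Scn3b (0.99), Gng12 (0.93) and the complement gene C1qb (0.93), and without CVX-060 rat 5 these were 0.91, 0.70 and 0.51. These are the highest among at least 8646 genes, so their r is a description only.

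The wider pathway was read from 7 lists of genes. With CVX-060, 0 of the 112 measured genes passed in limma over all genes, and 2 (1.79%) had an unadjusted p under 0.05, a smaller share than the 2.44% of all genes. These were Inhbe, the gene of a hepatocyte activin subunit, at 9.01 ± 0.54 in CVX-060 and 9.89 ± 0.64 in vehicle rats (difference -0.88, exact permutation p = 0.0476, n = 5 each), and Fstl3, an activin-binding protein, at 5.10 ± 0.18 and 4.81 ± 0.17 in CVX-060 and vehicle rats (difference 0.29, exact permutation p = 0.0397, n = 5 each). Fstl3 lay below background in all rats. Of genes for latent TGF-beta binding and activation, 15 of 17 measured had a higher mean with CVX-060 and their median difference was 0.14, led by Mmp14 (0.28), Itgav (0.26, above background in 1 rat) and Nrros (0.21), while 17 of 22 SMAD genes and regulators had a lower mean, with a median of -0.04. Over all genes 52.6% had a higher mean. Markers of several cell types also had higher means with CVX-060, none of them past an adjusted p of 0.05. They were 4 of 4 sinusoidal endothelial markers (median difference 0.34, mean signal 9.02 to 9.48 in CVX-060 rats and 8.56 to 9.28 in vehicle rats), 4 of 4 macrophage markers (0.25, 9.33 to 10.07 in CVX-060 rats and 9.25 to 9.74 in vehicle rats), 3 of 3 bile duct markers (0.17) and 7 of 8 stellate cell and myofibroblast markers (0.14). The endothelial receptor gene Lyve1 averaged 10.57 ± 0.16 with CVX-060 and 10.13 ± 0.34 with vehicle (difference 0.44, exact permutation p = 0.0159, n = 5 each). The part of these cell types in the higher means of the latent TGF-beta list was not tested. Smad6, the other inhibitory SMAD, differed by 0.12, Strap by 0.13 and Usp15 by -0.10.

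With Col1a1, 19 of the 112 pathway genes passed (17.0%, against 5.22% of all genes), and 36 had an unadjusted p under 0.05 (32.1%, against 23.1% of all genes). The 19 include Col1a2 and Col3a1, collagen genes like Col1a1 itself, so part of this share sets collagen against collagen. The lists were also chosen with earlier results of these data known, so the share is a description only. Of the 17 genes of latent TGF-beta binding and activation, 6 passed with a positive slope, where 3.84% of all genes did. They were Fbn1, the microfibril protein that anchors latent complexes (slope 0.92, adjusted p = 0.00083), the latent binding protein gene Ltbp1 (0.94, adjusted p = 0.0030), Mmp2 (0.61, adjusted p = 0.0099), the integrin gene Itgb6, below background in all rats (0.65), Itgb1 (0.43) and Ltbp3 (0.24). Of 22 SMAD genes and regulators 1 passed, Pmepa1, a TGF-beta induced inhibitor of SMAD signalling (slope 0.50, adjusted p = 0.0099), and Smad3 and Smad4 had slopes of 0.33 and 0.21 (adjusted p = 0.0978 and 0.117). None of the 10 other receptors passed, and Eng, an endothelial co-receptor, had a slope of -0.21 (adjusted p = 0.159).

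Of 24 target genes, 5 passed with a positive slope. These were Col1a2 (0.83), the proteoglycan gene Bgn (0.42), Col3a1 (0.40), the collagen cross-linking enzyme gene Lox (1.21, above background in 4 rats) and the smooth muscle gene Tagln (0.83). Nox4, an NADPH oxidase gene, passed with a negative slope of -1.17 and lay above background in 3 rats. Among 20 activins, BMPs, GDFs and antagonists, Fstl1 (0.59), Bmp4 (0.43) and Fst (0.52) passed with a positive slope and the hepatocyte activin subunit gene Inhbc (-0.56) and Bmper (-0.26) with a negative one, although Fst and Bmper lay below background in all rats and Bmp4 above it in 1. None of the 8 CCN and thrombospondin relatives passed. Ccn1, a matricellular relative of Ccn2, had a slope of 0.53 (adjusted p = 0.598) and an r of 0.24 with Col1a1. Of 11 YAP and TEAD genes Ajuba, a LIM domain protein that restrains Hippo kinases, passed (0.94, adjusted p = 0.0076), and Ankrd1, a YAP target below background in all rats, had a slope of 0.41 (adjusted p = 0.0520). The 19 genes became 3 without vehicle rat 2, 10 without vehicle rat 5 and 0 without vehicle rat 2 and CVX-060 rat 5.

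**Figure D4:**
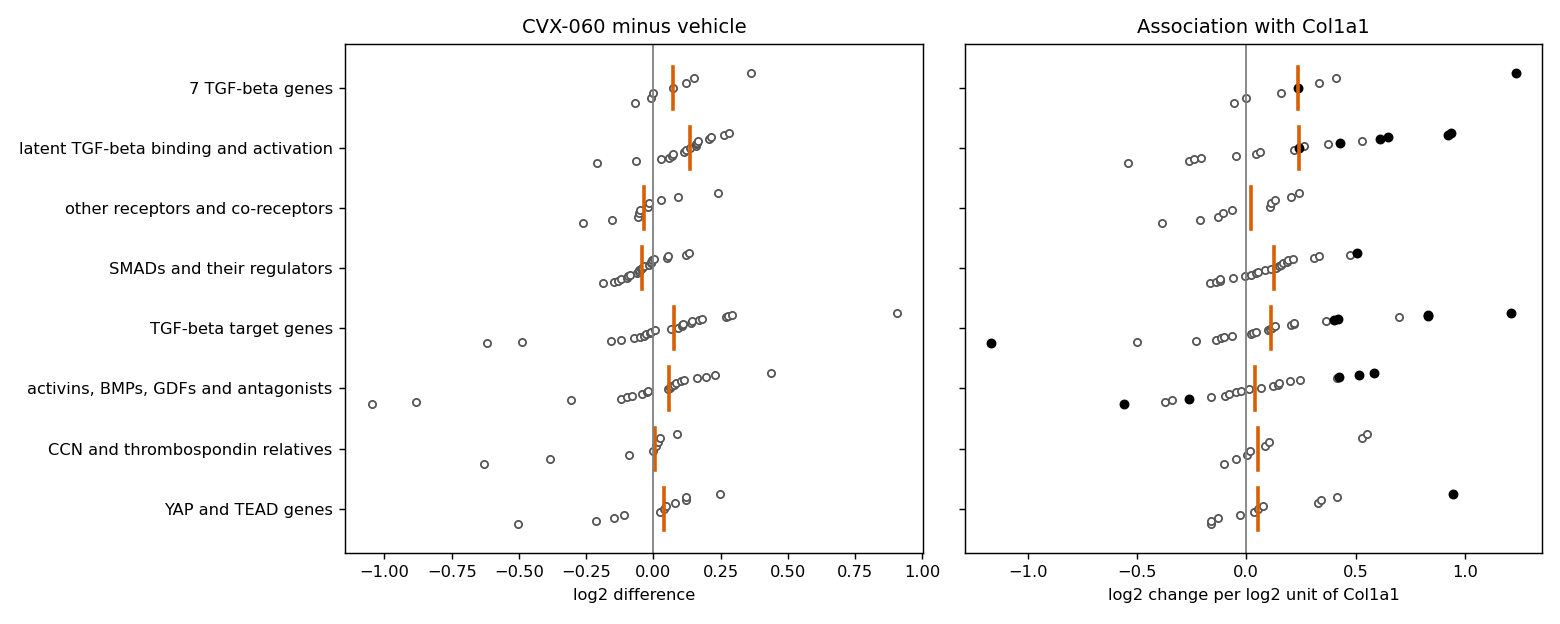
Left, log2 difference CVX-060 minus vehicle, and right, log2 change per log2 unit of Col1a1, for the 7 TGF-beta genes and each measured gene of 7 pathway lists (rows), where filled points had an adjusted p under 0.05 (limma, all genes) and orange bars are list medians. No point is filled on the left, and 6 of 17 genes of latent TGF-beta binding and activation are filled on the right.

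Some cell type markers also went with Col1a1 over all rats, whereas 0 of all genes passed without vehicle rat 2 and CVX-060 rat 5. Of 8 stellate cell and myofibroblast markers 4 passed with a positive slope (Col1a2, Col3a1, Pdgfrb and Tagln), where 3.84% of all genes did. Of these 4, Col1a2 and Col3a1 are collagen genes like Col1a1. Acta2 did not pass (slope 0.12, adjusted p = 0.503). Reln and Lrat, also on this list, had negative slopes of -0.40 and -0.23 (adjusted p = 0.141 and 0.479). The mean of the 8 log2 signals lay at 7.40 to 7.95 in CVX-060 rats and 7.22 to 7.81 in vehicle rats. It had an r of 0.85 with Col1a1 and 0.83 with Ccn2. This mean holds Col1a2 and Col3a1, collagen genes themselves, and was not computed without them. Of 3 bile duct markers 2 passed with a positive slope, against the same 3.84% of all genes. They were Epcam (slope 1.35, adjusted p = 0.0127) and Krt19 (1.07, adjusted p = 0.0398). The mean of the 3 lay at 5.43 to 6.76 in CVX-060 rats and 5.12 to 6.84 in vehicle rats, with an r of 0.91 with Col1a1 and 0.74 with Ccn2. Of these, Krt19 lay above background in 5 rats and Krt7 in 0. Mesothelial markers (2, neither above background in all rats) had an r of 0.88 with Col1a1 and 0.85 with Ccn2, at 5.19 to 6.11 in CVX-060 rats and 5.04 to 6.06 in vehicle rats. The mean of the 5 hepatocyte markers lay at 13.84 to 13.89 in CVX-060 rats and 13.71 to 13.95 in vehicle rats, with an r of 0.86 with Col1a1. None (0) of the 5 passed, 3 had negative slopes, and the largest slope was that of Apoa1 (0.43, adjusted p = 0.0702), whereas Alb had an r of -0.32 with Col1a1. Macrophage markers (4) had an r of 0.25, sinusoidal endothelial markers (4) of 0.30 and platelet markers (4) of -0.40 with Col1a1, and the platelet integrin gene Itga2b passed with a slope of -0.39 (adjusted p = 0.0351). The first principal component had an r of 0.89 with Col1a1, 0.82 with Ccn2, 0.77 with Tgfbr1, 0.73 with Tgfb3 and -0.09 with Smad7. The part of these cell types and of that component in the relation of Ccn2 and Tgfbr1 to Col1a1 was not tested.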

How the data were processed

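The authors deposited 1 log2 signal for each probe set and array, normalized between arrays, and array medians were nearly equal. Affy 1.56.0, R 3.4.0 and limma 3.38.2 are the tools in the submitters' processing notes, and the background correction and summary method are not given in the sources used here. No further normalization was applied. Of 31099 probe sets, 20826 with a single symbol, of 14217 genes, were kept (57 were controls, 436 had several symbols, 9780 had none). Symbols came from the platform annotation, updated through gene identifiers for 20758 of these. The members and gene lists were chosen with earlier results of these data known. Named genes are the members, the 3 genes most like each, and up to 3 genes per list and fit by the smallest p. Where more passed, these are named too, chosen after their values were seen, as were the searches for the TATA box, the GC box and the short SMAD motif. CVX-060 was compared with vehicle, and each gene regressed on Col1a1 with group as a term, with limma 3.58.1 (lmFit, eBayes; R 4.3.3). P-values were adjusted over all genes by Benjamini-Hochberg. Differences were also tested over all 252 splits of the rats and correlations with 100000 permutations (all permutations for 8 rats), two-sided, in Python 3.11.15 with numpy 2.4.6, and plots used matplotlib 3.10.9. Both fits were first tested on simulated data. Alternatives were the brightest probe set of a gene, leaving out genes under the 40th percentile by mean signal, a further quantile normalization, equal array medians, array weights, another variance prior, a replicate block, Bmal1 as a covariate, other collagen genes, and rats left out. The number of arrays limits the precision.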

Additional observations from a re-analysis of the deposited data

How the results depend on the processing

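The comparison of CVX-060 with vehicle gave 0 genes over all genes, among the 7 TGF-beta genes and in the pathway lists under all 19 alternatives. Tgfbr1, Tgfb2 and Thbs2 kept a higher mean with CVX-060 in each alternative that held them, but Tgfb1 and Tgfb2 were removed by the filter at the 40th percentile. With array weights the difference was 0.017 for Tgfb1 and 0.34 for Smad7. With Bmal1 as a covariate it was -0.32 for Smad7. Without vehicle rat 2 and CVX-060 rat 5 it was 0.028 for Tgfb1, 0.015 for Tgfb3, 0.35 for Smad7 and -0.065 for Ccn2. Leaving out each rat in turn gave -0.089 to 0.045 for Tgfb1, -0.17 to 0.054 for Tgfb3, -0.27 to 0.17 for Smad7 and -0.31 to 0.40 for Ccn2, so these 4 have no settled direction.

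For Col1a1, the slopes of Tgfb1, Tgfb2, Tgfb3, Tgfbr1 and Ccn2 were positive under every alternative that held them. The genes associated over all genes (742) numbered 494 with the filter, which tests fewer genes, 223 with Col1a2 and 5 with Col3a1 in place of Col1a1, 0 without vehicle rat 2 and CVX-060 rat 5, and 25 to 761 when each rat was left out. The 2 TGF-beta genes became 1 with the variance prior with trend and robust, with Col1a2 and with the other probe set of Col1a1, 0 with Col3a1 and without vehicle rat 2 and CVX-060 rat 5, and 0 to 3 when each rat was left out. The pathway genes (19) numbered 2 with Col3a1, 0 without both rats and 3 to 20 when each rat was left out. The pairs that passed (2) numbered 0 without both rats and 0 to 2 when each rat was left out. The slope of Thbs2 was 0.014 with array weights, 0.095 without both rats, 0.019 with no group term, 0.0086 with Col3a1, 0.0016 with the other probe set of Col1a1 and -0.030 to 0.034 when each rat was left out, and that of Smad7 was -0.47 to 0.16 when each rat was left out. The causes were not tested.

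The titles give both groups replicate numbers, but deviations of same-numbered rats had correlations of -0.17 to 0.15, so the numbers were not taken to pair the rats. With the replicate block, 0 genes passed for CVX-060, and for Col1a1 2 genes over all genes, 0 TGF-beta genes and 0 pathway genes (adjusted p = 0.155 for Ccn2 and 0.225 for Tgfbr1), with a slope of 0.043 for Thbs2. That fit leaves few residual degrees of freedom. Of the 70 values of the 7 genes, 51 lay above the 95th percentile of background, 70 above the 90th and 37 above the 99th.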

Other observations

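Of 21 measured immediate early genes, which many stimuli switch on quickly, 18 had a lower and 3 a higher mean with CVX-060 (median log2 difference -0.41, against 0.0064 over all genes, of which 47.4% had a lower mean). None (0) passed in limma over all genes, and 2 had an unadjusted p under 0.05, where 2.44% of all genes did, Fosl2 (difference -0.37, exact permutation p = 0.0238, 5 rats each) and Klf6, a zinc finger gene (difference -0.82, exact permutation p = 0.0873, 5 rats each). With Col1a1, 0 of the 21 passed.

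Lymphocyte markers were mostly dim. None (0) of 4 T and NK cell markers lay above background in all rats, and their mean signal lay at 5.09 to 5.37 in CVX-060 rats and 5.07 to 5.21 in vehicle rats. None (0) of these 4 or of 2 B and plasma cell markers passed in either fit.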
